A study of Mus musculus with 18 samples.

Results

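The 9 genes Pvalb, Calb1, Calb2, Hpca, Vsnl1, Ncald, Nrgn, S100a1 and S100b encode small proteins that act in calcium signalling inside cells. They were taken by name, with earlier results of these data known. Each had 1 probe set among the 35382 of the array, and they are 9 of the 18781 genes named by a probe set with a single symbol. The transgene, TN-XXL, is a fluorescent calcium reporter built around a calcium-binding domain of troponin C, itself an EF-hand protein, and animals carrying it were set against wild type littermates. Biotin-labelled cDNA from total RNA was measured on 18 Affymetrix arrays, with 3 arrays in every combination of genotype and tissue. All 6 groups came from the strain C57BL/6: wild type and transgenic skeletal muscle, wild type and transgenic heart, and wild type and transgenic hippocampus, with the transgenic arrays marked +/+ in their titles. Age, sex, the promoter that drives the transgene, the number of founder lines and the muscle that was taken are not stated in the labels used here. The labels do not say whether the arrays of a group came from separate animals, and p-values here reflect the spread between samples of a group, which may be technical. Precision is limited by having 3 arrays a group.

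An EF-hand is a loop between a pair of helices that holds a calcium ion. Parvalbumin and the calbindins mostly buffer calcium, which shortens or spreads calcium signals, whereas hippocalcin, visinin-like 1 and neurocalcin delta expose a lipid anchor when they bind calcium and move to membranes. S100 proteins are EF-hand dimers that bind other proteins, and neurogranin is no EF-hand protein: it holds calmodulin through an IQ motif and releases it when calcium rises. Parvalbumin speeds relaxation of fast muscle fibres and marks a class of hippocampal interneurons, calbindin marks dentate granule cells, calretinin marks other interneurons, and S100B is a marker of astrocytes.

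Promoter sequences are shown for Pvalb, Vsnl1, Nrgn, S100a1 and S100b because they cover the 3 tissue patterns described next: Pvalb highest in muscle, S100a1 highest in heart, and Vsnl1, Nrgn and S100b highest in hippocampus. Each sequence is the 250 bases before the annotated gene start, from RefSeq on GRCm38.p6, written 5′ to 3′ on the strand of the gene. Calb1, Calb2 and Ncald had no entry in the table, and none of the 3 starts listed for Hpca was at the annotated start of the gene. Capitals mark motif matches. The motifs searched on both strands were the E-box CANNTG, which contains the sites of many basic helix-loop-helix factors, the TATA box TATAAA, the GC box GGGCGG, the cyclic AMP response element TGACGTCA, and the MEF2 and CArG box motifs of muscle genes.
Pvalb, chr15:78206401-78206650, minus strand: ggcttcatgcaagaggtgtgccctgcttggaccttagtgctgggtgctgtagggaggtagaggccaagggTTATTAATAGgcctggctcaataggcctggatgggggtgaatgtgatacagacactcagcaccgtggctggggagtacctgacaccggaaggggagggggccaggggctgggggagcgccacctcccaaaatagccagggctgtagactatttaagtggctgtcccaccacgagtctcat
Vsnl1, chr12:11436579-11436828, minus strand: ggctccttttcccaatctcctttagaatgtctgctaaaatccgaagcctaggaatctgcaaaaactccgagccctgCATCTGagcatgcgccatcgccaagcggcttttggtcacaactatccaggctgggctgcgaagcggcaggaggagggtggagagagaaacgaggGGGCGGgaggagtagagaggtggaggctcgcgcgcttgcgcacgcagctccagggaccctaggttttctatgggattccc
Nrgn, chr9:37552746-37552995, minus strand: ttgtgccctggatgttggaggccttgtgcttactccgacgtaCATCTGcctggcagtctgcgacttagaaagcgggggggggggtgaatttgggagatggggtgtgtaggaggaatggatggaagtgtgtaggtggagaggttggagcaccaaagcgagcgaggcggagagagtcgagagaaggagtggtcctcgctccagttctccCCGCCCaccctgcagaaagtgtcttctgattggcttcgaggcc
S100a1, chr3:90514331-90514580, minus strand: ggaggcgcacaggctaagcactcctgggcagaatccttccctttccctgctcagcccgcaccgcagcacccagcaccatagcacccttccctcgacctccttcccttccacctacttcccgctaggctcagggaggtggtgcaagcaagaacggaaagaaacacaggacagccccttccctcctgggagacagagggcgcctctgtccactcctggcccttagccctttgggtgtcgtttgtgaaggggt
S100b, chr10:76253586-76253835, plus strand: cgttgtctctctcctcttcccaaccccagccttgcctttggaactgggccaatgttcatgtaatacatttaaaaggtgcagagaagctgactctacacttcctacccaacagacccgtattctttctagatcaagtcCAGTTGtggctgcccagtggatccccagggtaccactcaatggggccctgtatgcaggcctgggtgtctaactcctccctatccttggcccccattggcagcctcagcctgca

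Counting the last base before the start as -1, the Pvalb sequence held 1 match of the MEF2 motif, from -180 to -171, and no other match. At least 1 MEF2 match was found in 2.92% of 32851 promoters of the same length. Vsnl1 and Nrgn each held 1 E-box and 1 GC box: in Vsnl1 from -174 to -169 and from -80 to -75, and in Nrgn from -208 to -203 and from -43 to -38. S100b held 1 E-box, from -113 to -108, and S100a1 held none of the motifs searched. An E-box was found in 66.2% of all promoters, a GC box in 32.7%, a TATA box in 12.4%, the cyclic AMP response element in 1.55% and a CArG box in 1.47%. The G and C content was 58.4% for Pvalb, 58.0% for Vsnl1, 58.4% for Nrgn, 61.6% for S100a1 and 53.6% for S100b, against a median of 52.4% over all promoters. Vsnl1 held 14 CpG dinucleotides, Nrgn 11, S100a1 8, Pvalb 4 and S100b 2, against a median of 6. A match is a stretch of letters and not a measured binding site.

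Values are given as deposited, on the log2 scale, so that a step of 1 is a doubling. Array medians lay at 2.44 to 2.49 in skeletal muscle, 2.61 to 2.63 in heart and 3.68 to 3.71 in hippocampus, so a level set across tissues carries a shift of the whole array. A reading under the array median is not shown to be above background, so differences from such readings are given on the log2 scale without a fold, and their size depends on where a probe set bottoms out. Arrays of a group correlated at 0.982 to 0.993 across probe sets. In the tissue they mark, all 8 markers of fast fibres, all 7 measured markers of heart muscle cells and all 8 markers of neurons lay above the array median. Fewer cells of a type and less RNA per cell cannot be told apart in these tissue samples.

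In wild type mice the genes fell into 3 patterns over the tissues. Pvalb was highest in skeletal muscle, intermediate in hippocampus and below the array median in heart. S100a1 was highest in heart, then skeletal muscle, then hippocampus, and stood above the array median in all 3 tissues. The other 7 genes were highest in hippocampus, by 4.28 to 9.40 on the log2 scale over the heart or muscle of the same genotype. A limma fit to all 18 arrays called all 9 genes between hippocampus and muscle at an adjusted p under 0.05 (7 higher and 2 lower in hippocampus), where 78.2% of all probe sets were called. All 9 were also called between hippocampus and heart (8 higher, 1 lower), where 76.8% of probe sets were. Between heart and muscle 4 of 9 were called (3 higher and 1 lower in heart), close to the 38.7% of all probe sets. The median difference of the 9 genes was 5.14 between hippocampus and muscle and 4.86 between hippocampus and heart, against 0.67 and 0.61 over all probe sets.

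**Figure D1:**
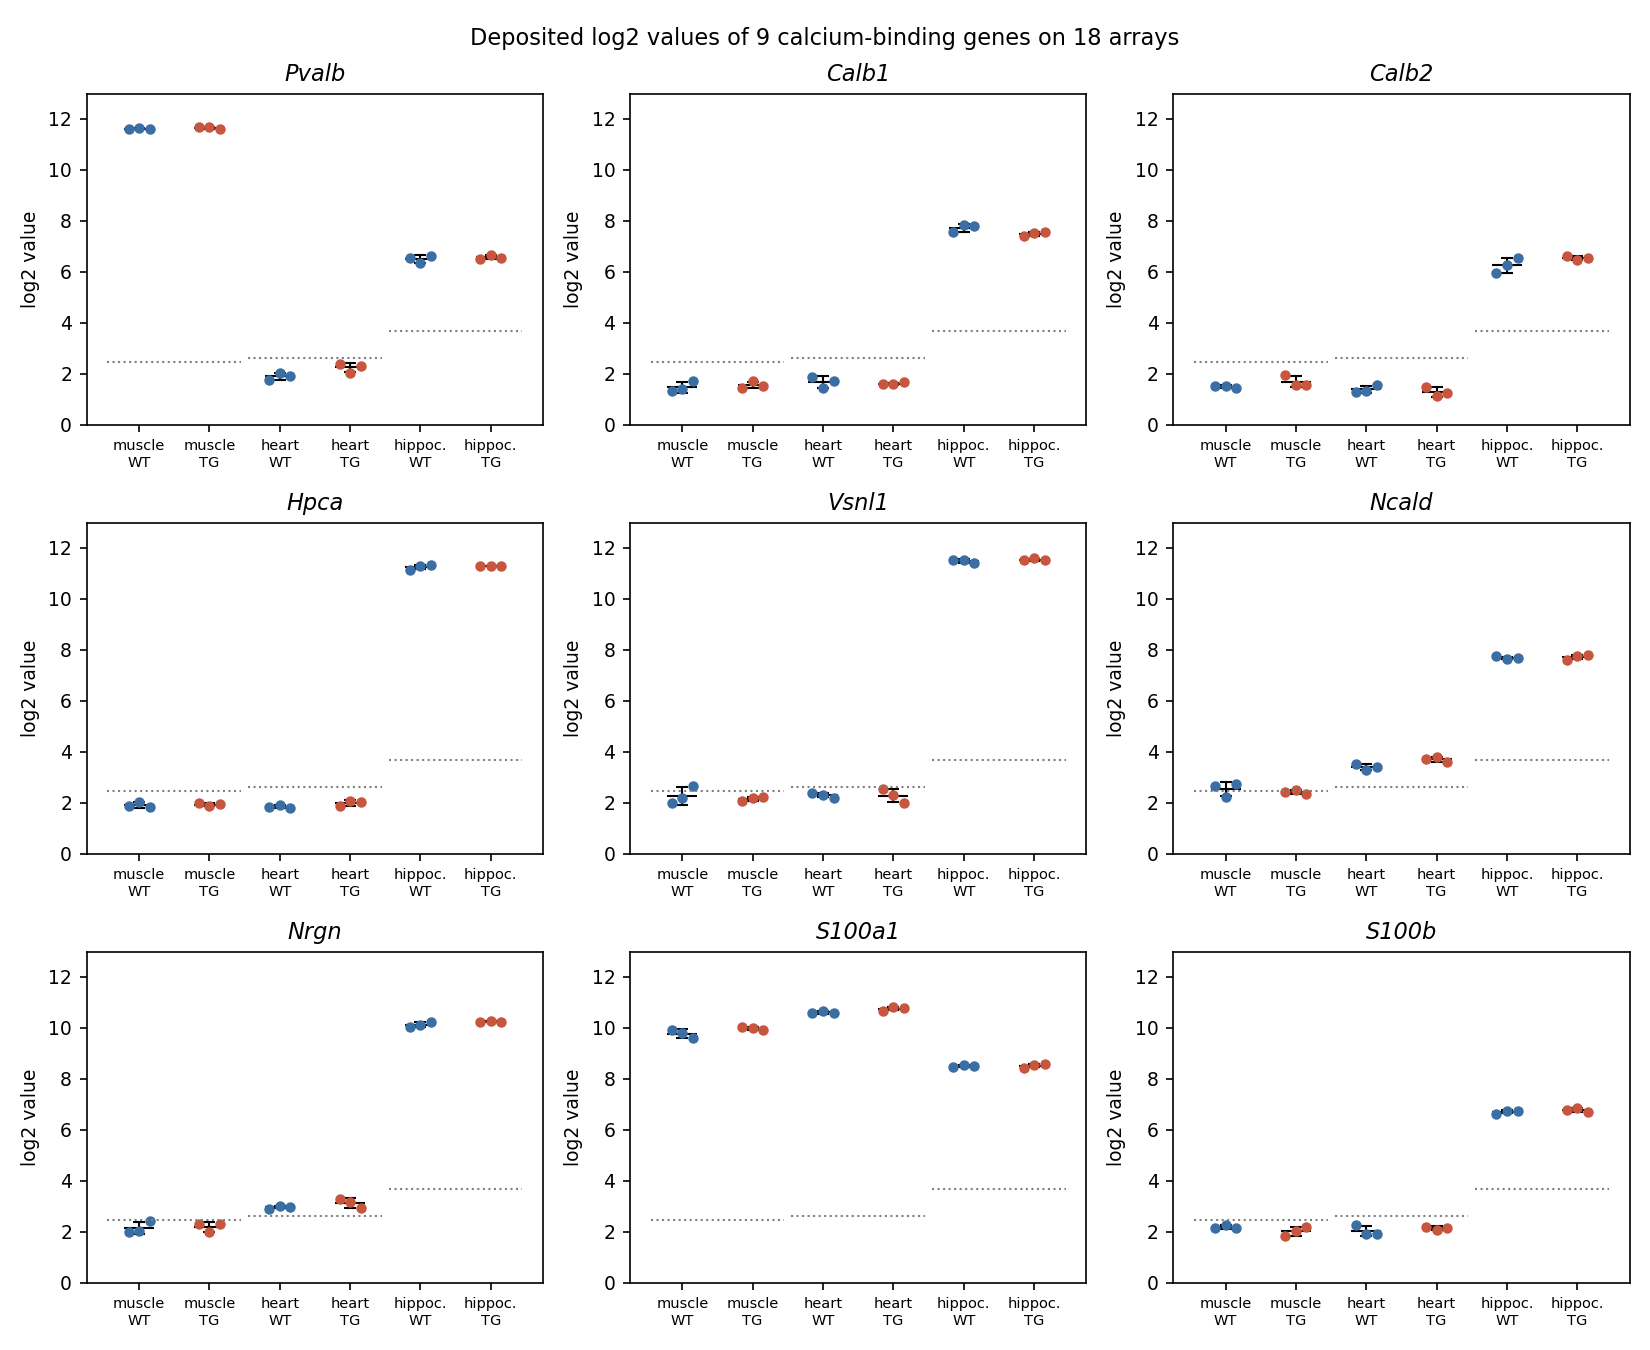
Log2 values of the 9 genes on the 18 arrays, by tissue and genotype (blue wild type, red transgenic; bars give mean ± SD of 3 arrays, dotted lines the array median of the tissue). Pvalb stands highest in muscle at 11.59 to 11.68, S100a1 in heart at 10.57 to 10.81, and the other 7 genes in hippocampus.

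Among the buffers, Pvalb read 11.59, 11.65 and 11.61 on the wild type muscle arrays, 6.56, 6.33 and 6.62 in hippocampus and 1.77, 2.03 and 1.91 in heart. No arrays of different tissues overlapped. Its level in muscle was 34.6-fold that in hippocampus (difference -5.11 ± 0.10 for hippocampus minus muscle, SE, n = 3 arrays a group, limma adjusted p = 3.37e-16). Heart, under the array median, stood 9.71 lower than muscle on the log2 scale (-9.71 ± 0.10 for heart minus muscle, adjusted p = 5.19e-18). The markers of fast fibres moved with it, with a mean level per array of 11.15 to 11.27 in wild type muscle and 2.12 to 2.21 in wild type heart. Their mean in wild type hippocampus was 2.52 to 2.80, with 0 of 8 markers above the array median, whereas the 11 measured markers of inhibitory interneurons, all above the array median there, had a mean of 7.30 to 7.32. Their part in the Pvalb level was not tested.

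Calb1, the gene of calbindin, read 7.56, 7.83 and 7.79 in wild type hippocampus. In muscle its values were 1.31 to 1.71 and in heart 1.43 to 1.88, so that only the hippocampal arrays stood above their array median. Hippocampus was above muscle by 6.26 ± 0.13 (adjusted p = 4.25e-16) and above heart by 6.05 ± 0.13. Calb2, the gene of calretinin, read 5.95, 6.28 and 6.53 in wild type hippocampus, and 1.45 to 1.53 in muscle and 1.29 to 1.55 in heart. Muscle and heart lay under the array median, and hippocampus was above muscle by 4.75 ± 0.14 (adjusted p = 6.28e-14). Muscle and heart did not pass for either gene (Calb1 0.21 ± 0.13, adjusted p = 0.212, and Calb2 -0.11 ± 0.14, adjusted p = 0.61, heart minus muscle).

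The membrane-moving sensors Hpca and Vsnl1 were high in hippocampus, with means under the array median in muscle and heart. Hpca, the gene of hippocalcin, read 11.15, 11.28 and 11.33 in wild type hippocampus, 1.82 to 2.05 in muscle and 1.80 to 1.93 in heart. The difference between hippocampus and muscle was 9.34 ± 0.08 (adjusted p = 3.93e-19). Vsnl1, the gene of visinin-like 1, read 11.52, 11.53 and 11.40 in hippocampus, with 1.98 to 2.67 in muscle and 2.20 to 2.39 in heart, and was higher in hippocampus than in muscle (9.21 ± 0.15, adjusted p = 4.14e-17). Neither differed between heart and muscle beyond its error (Hpca -0.06 ± 0.08 and Vsnl1 0.02 ± 0.15, adjusted p = 0.603 and 0.924).

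Ncald, the gene of neurocalcin delta, had a smaller hippocampal excess and a graded order of tissues. Its wild type values were 7.75, 7.64 and 7.67 in hippocampus, 3.52, 3.29 and 3.40 in heart and 2.66, 2.24 and 2.72 in muscle, with no overlap between tissues. Heart was above muscle, where 1 array lay under the array median, by 0.86 ± 0.11 (adjusted p = 1.47e-05), and hippocampus 19.4-fold above heart (4.28 ± 0.11). Nrgn had the same order of means, at 10.04, 10.13 and 10.22 in hippocampus, 2.91, 3.01 and 2.99 in heart and 2.00, 2.04 and 2.44 in muscle. Heart was above muscle by 0.81 ± 0.13 (adjusted p = 8.00e-05), with muscle under the array median, and hippocampus was 143-fold above heart. Of the 8 general markers of neurons, 4 passed as higher in heart than in muscle, where 25.6% of all probe sets did. Their mean was 2.52 to 2.60 in wild type heart and 2.20 to 2.22 in wild type muscle, and 6 of the 8 lay below the array median in both tissues. Their part in the Ncald and Nrgn differences was not tested.

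S100a1, whose product binds the calcium pump and the release channel of muscle cells, read 10.58, 10.68 and 10.57 in wild type heart, 9.93, 9.79 and 9.60 in muscle and 8.48, 8.54 and 8.52 in hippocampus. The groups were fully separated in this order. Heart was 1.78-fold above muscle (0.83 ± 0.08, adjusted p = 8.48e-07) and hippocampus 2.39-fold below muscle (-1.26 ± 0.08, adjusted p = 1.34e-09). S100b was high in hippocampus alone, at 6.64, 6.73 and 6.75 in hippocampus against 2.13 to 2.28 in muscle and 1.90 to 2.26 in heart. The difference between hippocampus and muscle was 4.52 ± 0.11 (adjusted p = 3.15e-15). Heart and muscle, both under the array median with overlapping values, did not pass (-0.17 ± 0.11, adjusted p = 0.255). The 8 markers of astrocytes had a mean of 8.42 to 8.50 in wild type hippocampus, all above the array median. The 4 measured markers of Schwann cells, which also carry S100B, had a mean of 2.11 to 2.41 in wild type muscle with 1 of 4 above the array median.

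The transgenic arrays are other samples. The 22 differences called in wild type mice were called there too. In addition Calb2 passed between heart and muscle (-0.40, adjusted p = 0.0400), from readings under the array median in both tissues. In the transgenic arrays heart stood above muscle by 1.29 for Ncald (adjusted p = 1.96e-07), 0.94 for Nrgn (2.03e-05) and 0.79 for S100a1 (1.72e-06), in the same fit. All probe sets were called there at 76.4% between hippocampus and muscle, 75.2% between hippocampus and heart and 39% between heart and muscle. The 22 differences also kept their direction when the arrays were centred on their medians or quantile normalized, although the split of all called probe sets turned. Between hippocampus and muscle, 70.1% of probe sets were higher and 8.1% lower as deposited, 20.6% and 57.5% after centring, and 22.6% and 29.6% after quantile normalization. Between hippocampus and heart the shares were 67.3% and 9.46% as deposited, 19.2% and 54.8% after centring, and 21.5% and 27.2% after quantile normalization. Between heart and muscle they were 25.6% and 13.1%, 18.3% and 23.3%, and 19.3% and 18.8%. Relative to the array median, S100a1 was lower in hippocampus than in muscle by more than the deposited values show (-2.52 centred, -1.91 quantile normalized, -1.26 as deposited). Ncald in heart minus muscle was 0.69 centred and 0.65 quantile normalized.

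Over the 18 arrays the genes whose levels ran most like those of the 9, among 18780 others, followed the same tissue patterns. These correlations are descriptions, because the 18 arrays share 3 tissues and any gene of the same tissue order scores high. For Pvalb they were Jph1 (Pearson r = 0.997), Serinc2 and Eya4. Jph1 encodes junctophilin 1 of the muscle triad. For S100a1 they were Sdha (0.997) and Cyc1, which encode parts of the respiratory chain, and Myl2 (0.995), a ventricular myosin light chain. For Calb1 they were Pak3, Doc2b and Car12, and for Calb2 Tspan2, Spock1 and Ildr2. For Hpca they were Clvs2, Grin3a and Ptprn, for Vsnl1 Stmn3, Rph3a and Ncan, and for Ncald Rtn3, Frmd5 and Pde1a. Nrgn ran most like Gm10419, Slc22a17 and Baalc. For S100b they were Cacna1e, Kcnc2 and Aldoc (r = 0.999 for Aldoc), the last of them on the list of astrocyte markers. Among the 9 genes, Hpca and Vsnl1 correlated at 0.999, Hpca and S100a1 at -0.922, and Calb1 and Calb2 at 0.993.

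Between genotypes, none of the 9 genes passed in any tissue. In skeletal muscle limma called 0 of 9, where 8.15% of all probe sets were called. In heart it called 0 of 9 against 3.19%, and in hippocampus 0 of 9 against 0%. At an unadjusted p under 0.05 there was 1 of the 9 in muscle (S100a1), 2 in heart (Pvalb and Ncald) and 0 in hippocampus, where all probe sets gave 19.1%, 15% and 5.04%. Fitted to the arrays of 1 tissue at a time, limma again called 0 of 9 in muscle, heart and hippocampus, against 2.37%, 0.102% and 0% of all probe sets. The mean difference over the 3 tissues called 0 of 9 (background 5.8%), with 2 at an unadjusted p under 0.05 (Pvalb and S100a1). The test of a genotype difference that varies between tissues called 0 of 9 (background 3.89%), with 0 at an unadjusted p under 0.05 and the lowest adjusted p at 0.321 for Ncald. The median difference of the 9 genes, transgenic minus wild type, was 0.04 in muscle, 0.14 in heart and 0.05 in hippocampus, beside 0.02, 0.00 and -0.01 over all probe sets. A difference that misses the threshold is not shown to be absent, and the 95% confidence intervals of the 9 genes reached from -0.44 to 0.49 in muscle, -0.41 to 0.57 in heart and -0.50 to 0.59 in hippocampus.

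**Figure D2:**
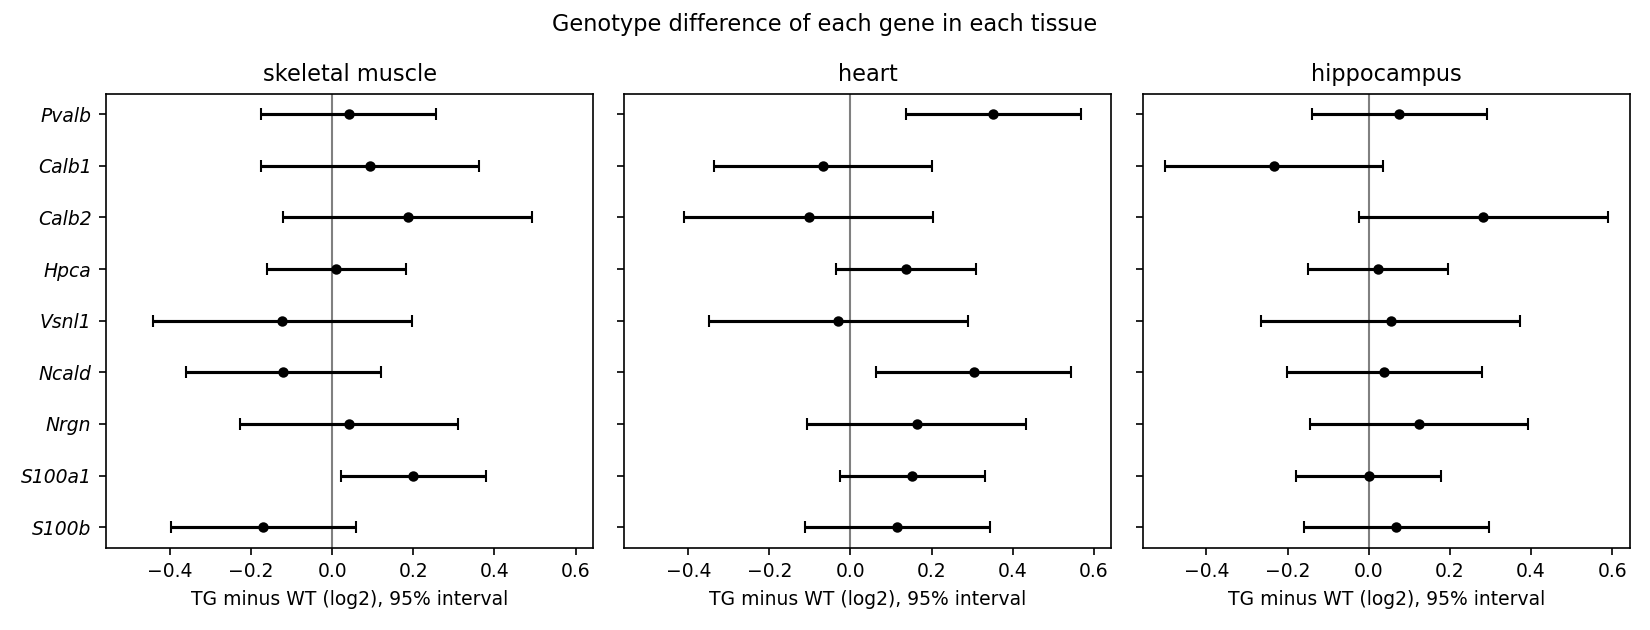
Transgenic minus wild type differences on the log2 scale for the 9 genes in each tissue, with 95% confidence intervals from limma. The differences range from -0.23 (Calb1 in hippocampus) to 0.35 (Pvalb in heart), and the intervals exclude 0 for S100a1 in muscle and for Pvalb and Ncald in heart, none of which passed after adjustment over all probe sets.

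Of the buffers, Pvalb in transgenic muscle read 11.68, 11.67 and 11.61, overlapping the wild type arrays, with an interval of the difference from -0.18 to 0.26. The fast fibre markers had a mean of 11.20 to 11.22 in transgenic muscle, within the wild type range. In heart the transgenic arrays read 2.40, 2.05 and 2.31, all above the wild type arrays, at a level under the array median in both genotypes (0.35 ± 0.10, interval 0.14 to 0.57, adjusted p = 0.0797). Groups stood apart in this direction in 9.19% of all probe sets in heart. The adjusted p for Pvalb in heart ranged from 0.0318 to 0.347 over the alternatives: it passed without the transgenic heart replicate 2 (0.45, adjusted p = 0.0318) and with dim probe sets left out (0.35, adjusted p = 0.0378), a filter it passed through its level in muscle. Fitted to the heart arrays alone its adjusted p was 0.347. In hippocampus Pvalb read 6.51, 6.67 and 6.55 in transgenic arrays, overlapping the wild type arrays (0.08 ± 0.10), beside interneuron markers with a mean of 7.35 to 7.42, against 7.30 to 7.32 in wild type arrays.

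Calb1 in transgenic hippocampus read 7.39, 7.52 and 7.57, of which the highest overlapped the lowest wild type array (-0.23 ± 0.13, interval -0.50 to 0.03, adjusted p = 0.9997). The mean of the 6 markers of dentate granule cells was 6.56 to 6.62 in the transgenic and 6.67 to 6.82 in the wild type arrays. In hippocampus 0 of the 6 passed between genotypes, where 0% of all probe sets were called, so this count does not show them unchanged. The 7 measured markers of pyramidal cells had a mean of 8.53 to 8.58 in transgenic and 8.44 to 8.59 in wild type arrays. The part of these cells in the Calb1 values was not tested. Calb2 read 6.62, 6.45 and 6.53 in transgenic hippocampus, which overlapped the wild type arrays (0.28 ± 0.14, interval -0.02 to 0.59, adjusted p = 0.9997). In muscle the transgenic Calb2 values of 1.94, 1.57 and 1.54 lay above the wild type ones, at a level under the array median (0.19 ± 0.14, adjusted p = 0.565). There 11.6% of all probe sets had transgenic arrays wholly above wild type arrays.

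The hippocampal levels of the sensors were close between genotypes. Hpca in transgenic hippocampus read 11.27, 11.28 and 11.28, inside the wild type range (0.02 ± 0.08, interval -0.15 to 0.20). Vsnl1 read 11.52, 11.59 and 11.51 (0.05 ± 0.15, interval -0.27 to 0.37) and Ncald 7.61, 7.77 and 7.79 (0.04 ± 0.11, interval -0.20 to 0.28), each overlapping the wild type arrays. In heart the transgenic arrays read 3.72, 3.79 and 3.61 for Ncald, all above the wild type arrays (0.30 ± 0.11, interval 0.06 to 0.54). The same separation was found in 9.19% of all probe sets in heart, and the difference did not pass (adjusted p = 0.19, and 0.313 with the heart arrays alone). Nrgn in transgenic hippocampus read 10.22, 10.29 and 10.25, just above the wild type arrays, of which the highest was also 10.22 after rounding (0.12 ± 0.13, interval -0.14 to 0.39, adjusted p = 0.9997). In hippocampus 5.95% of all probe sets had transgenic arrays wholly above wild type arrays.

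Among the S100 genes, S100a1 read 10.04, 9.98 and 9.90 in transgenic muscle against 9.93, 9.79 and 9.60 in wild type muscle, and the groups overlapped. The difference was 0.20 ± 0.08 (interval 0.02 to 0.38, adjusted p = 0.193, and 0.482 with the muscle arrays alone). In transgenic heart it read 10.68, 10.81 and 10.79 (0.15 ± 0.08, interval -0.03 to 0.33, adjusted p = 0.434). In hippocampus the difference was 0.00 ± 0.08 (interval -0.18 to 0.18). S100b in transgenic hippocampus read 6.80, 6.85 and 6.68 (0.07 ± 0.11, interval -0.16 to 0.30), with astrocyte markers at a mean of 8.40 to 8.45. The mean over tissues was 0.12 ± 0.05 for S100a1 (adjusted p = 0.205) and 0.16 ± 0.06 for Pvalb (adjusted p = 0.155), neither of which passed.

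The wider family was read from 5 lists with 51 genes, all measured, described here by counts. Of all probe sets 3.86% rose and 4.3% fell in muscle, and 1.57% rose and 1.62% fell in heart. Of 10 other neuronal calcium sensors and Kcnip genes, whose Kcnip products set the current of Kv4 potassium channels, 1 rose and 1 fell in transgenic heart and 0 passed in muscle or hippocampus. Of 13 buffers and CaBP genes 1 fell in heart, and 0 passed elsewhere. Of 13 other S100 genes 0 passed in any tissue. Those with the smallest unadjusted p were S100a13 (0.29, adjusted p = 0.136) and S100a4 (0.26, adjusted p = 0.302) in muscle, S100a6 (-0.28) and S100a7a (-0.11) in heart, and S100a3 (-0.41, adjusted p = 0.986) and S100a11 (0.18) in hippocampus. The means of S100a4, S100a7a and S100a3 in the tissue named lay under the array median in both genotypes. Of 3 other IQ motif genes, listed beside Nrgn, 1 fell in muscle. Of 12 EF-hand genes of the secretory pathway and penta-EF genes, whose products include subunits of calpain and its relatives, 2 rose in muscle and 0 passed in heart or hippocampus. The list medians, in this order, were -0.03, 0.01, 0.13, -0.20 and 0.05 in muscle, -0.04, -0.01, -0.04, 0.03 and 0.11 in heart, and -0.02, 0.04, -0.05, -0.01 and -0.03 in hippocampus.

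In muscle, Pcp4l1, a small IQ-motif gene, read 6.66, 6.58 and 6.72 in wild type and 5.63, 5.30 and 5.14 in transgenic arrays, without overlap. It fell by 1.29 ± 0.13, to 0.408 of the wild type level (adjusted p = 1.01e-05), and the difference varied between tissues (adjusted p = 0.000443 by the moderated F test). In heart its mean was 8.92 ± 0.08 in wild type and 9.06 ± 0.12 in transgenic arrays (SD, n = 3). Gca, the gene of the penta-EF protein grancalcin, rose in muscle from 5.40, 5.45 and 5.25 to 5.89, 6.06 and 6.11 (0.65 ± 0.10, adjusted p = 7.47e-04). Capns1, the small regulatory subunit of calpain, rose in muscle from 9.73, 9.61 and 9.63 to 10.02, 9.94 and 10.01 (0.33 ± 0.07, adjusted p = 0.00441), a call lost with the muscle arrays alone (adjusted p = 0.121). In heart Capns1 read 9.87, 10.04 and 10.02 in wild type and 10.20, 10.20 and 10.25 in transgenic arrays, without overlap but not called. Groups stood apart in this direction in 9.19% of all probe sets in heart. The 7 measured markers of fat cells had a mean of 4.73 to 5.35 in wild type and 5.48 to 5.96 in transgenic muscle. All 7 lay above the array median, and their part in the muscle differences was not tested.

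In heart, Kcnip2, whose product KChIP2 supports the transient outward current, read 7.51, 7.70 and 7.49 in wild type and 6.97, 6.76 and 6.79 in transgenic arrays (adjusted p = 3.91e-04). It stood at 7.49 to 7.70 in wild type heart, 8.01 to 8.22 in wild type hippocampus and 1.78 to 1.93 in wild type muscle, so it stood well above the array median in both heart and hippocampus, whereas Hpca and Vsnl1 did so in hippocampus alone. Rcvrn, the gene of the photoreceptor sensor recoverin, read 1.13, 1.32 and 1.40 in wild type and 1.87, 1.93 and 1.79 in transgenic heart, under the array median in both (0.58 ± 0.10, adjusted p = 0.00629). Cabp1, the gene of caldendrin and its short forms, read 3.14, 3.49 and 3.51 against 2.72, 2.53 and 2.75 (-0.71 ± 0.15, adjusted p = 0.0165). None of these 3 calls was kept with the heart arrays alone (adjusted p = 0.0793 for Kcnip2, 0.109 for Rcvrn and 0.117 for Cabp1). Cabp1 also missed after quantile normalization (0.0576), without the wild type heart replicate 2 (0.0645) or 3 (0.0648), and without the transgenic heart replicate 2 (0.0683). The 7 genes listed as slow fibre markers include Myl2 of the ventricle. In heart their mean was 7.54 to 7.62 in wild type and 7.16 to 7.32 in transgenic arrays, and 0 rose and 2 fell. The 7 measured markers of heart muscle cells had a mean of 9.50 to 10.18 and 9.64 to 10.59, and 1 rose and 1 fell. Of all probe sets 1.57% rose and 1.62% fell in heart. The part of both lists in these differences was not tested.

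**Figure D3:**
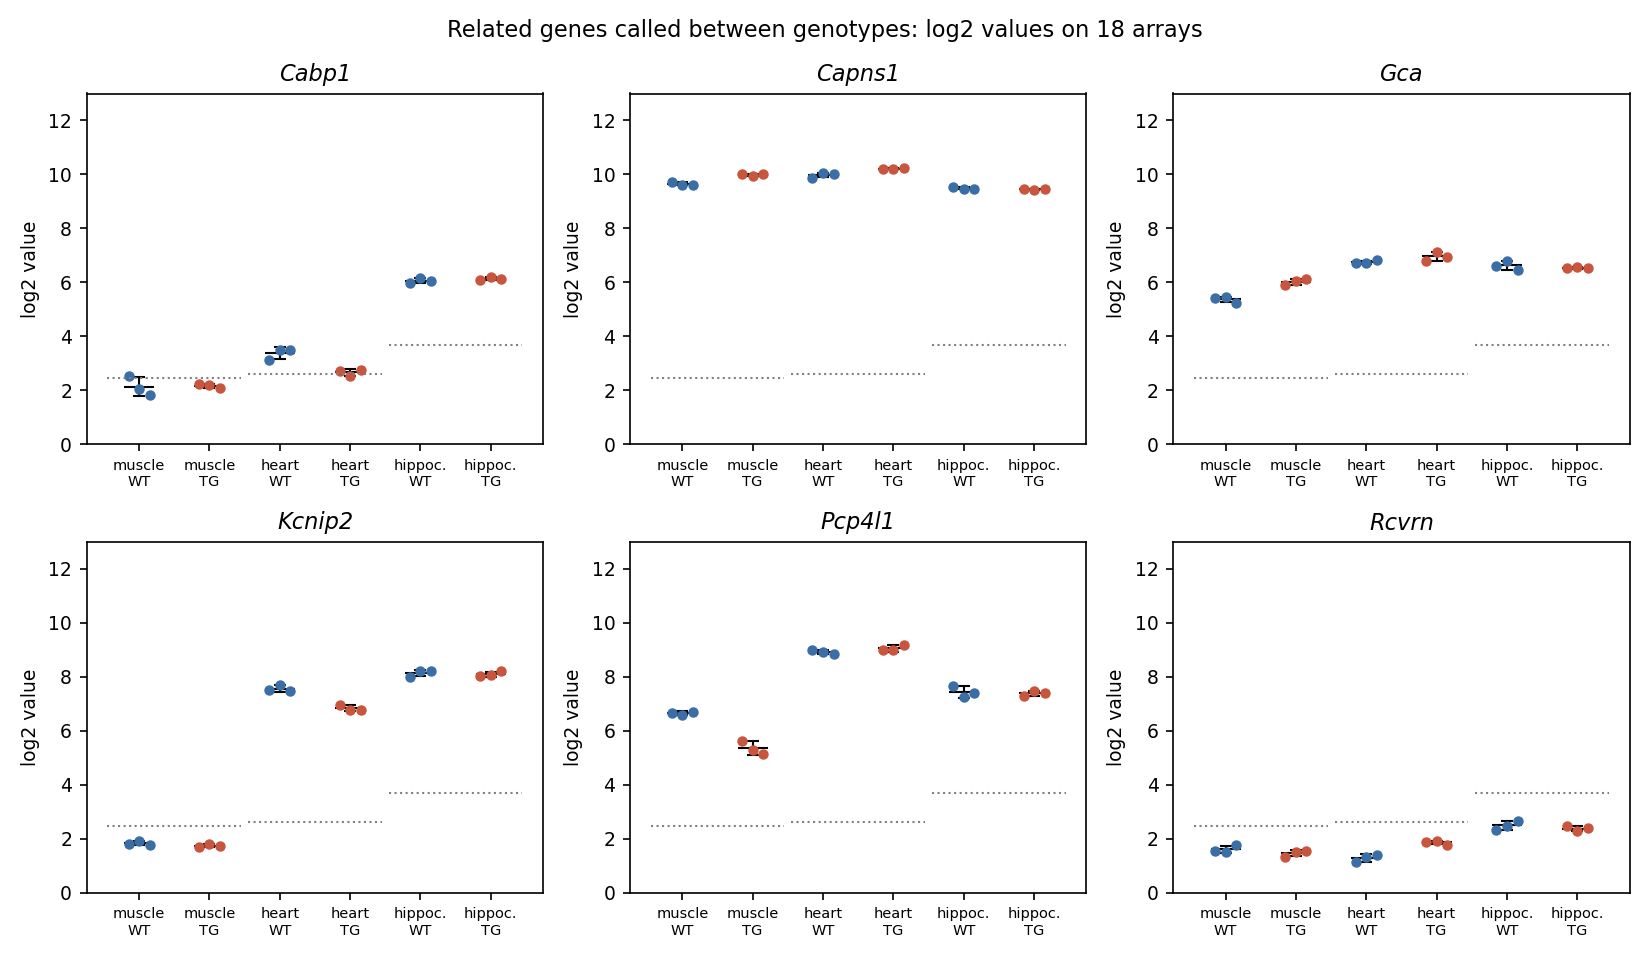
Log2 values of the 6 related genes that passed between genotypes, on the 18 arrays (blue wild type, red transgenic; bars give mean ± SD of 3 arrays, dotted lines the array median). Pcp4l1, Gca and Capns1 passed in muscle and Kcnip2, Rcvrn and Cabp1 in heart, and Rcvrn lies under the array median in every group.

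Across tissues, the lists are given by the same counts for wild type hippocampus against muscle. Of all probe sets, 70.1% were higher and 8.1% lower as deposited, 22.6% and 29.6% after quantile normalization, and 20.6% and 57.5% after centring on the array median. Of the 10 other neuronal calcium sensors and Kcnip genes 9 were higher and 0 lower as deposited, with a median difference of 5.07 against 0.67 over all probe sets. After quantile normalization 8 were higher and 0 lower, and after centring 7 were higher and 3 lower. Of the 13 buffers and CaBP genes, 12 were higher and 1 lower as deposited, but 7 and 1 after quantile normalization and 6 and 6 after centring. Of the other 13 S100 genes, 5 were higher and 2 lower in hippocampus than in muscle as deposited, and the direction turned to 0 higher and 7 lower after quantile normalization and to 0 and 12 after centring. Of the 3 IQ motif genes all were higher in hippocampus as deposited, 2 higher and 0 lower after quantile normalization, and 2 and 1 after centring. Of the 12 secretory and penta-EF genes 9 were higher and 2 lower as deposited, 3 and 6 after quantile normalization, and 4 and 5 after centring.

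**Figure D4:**
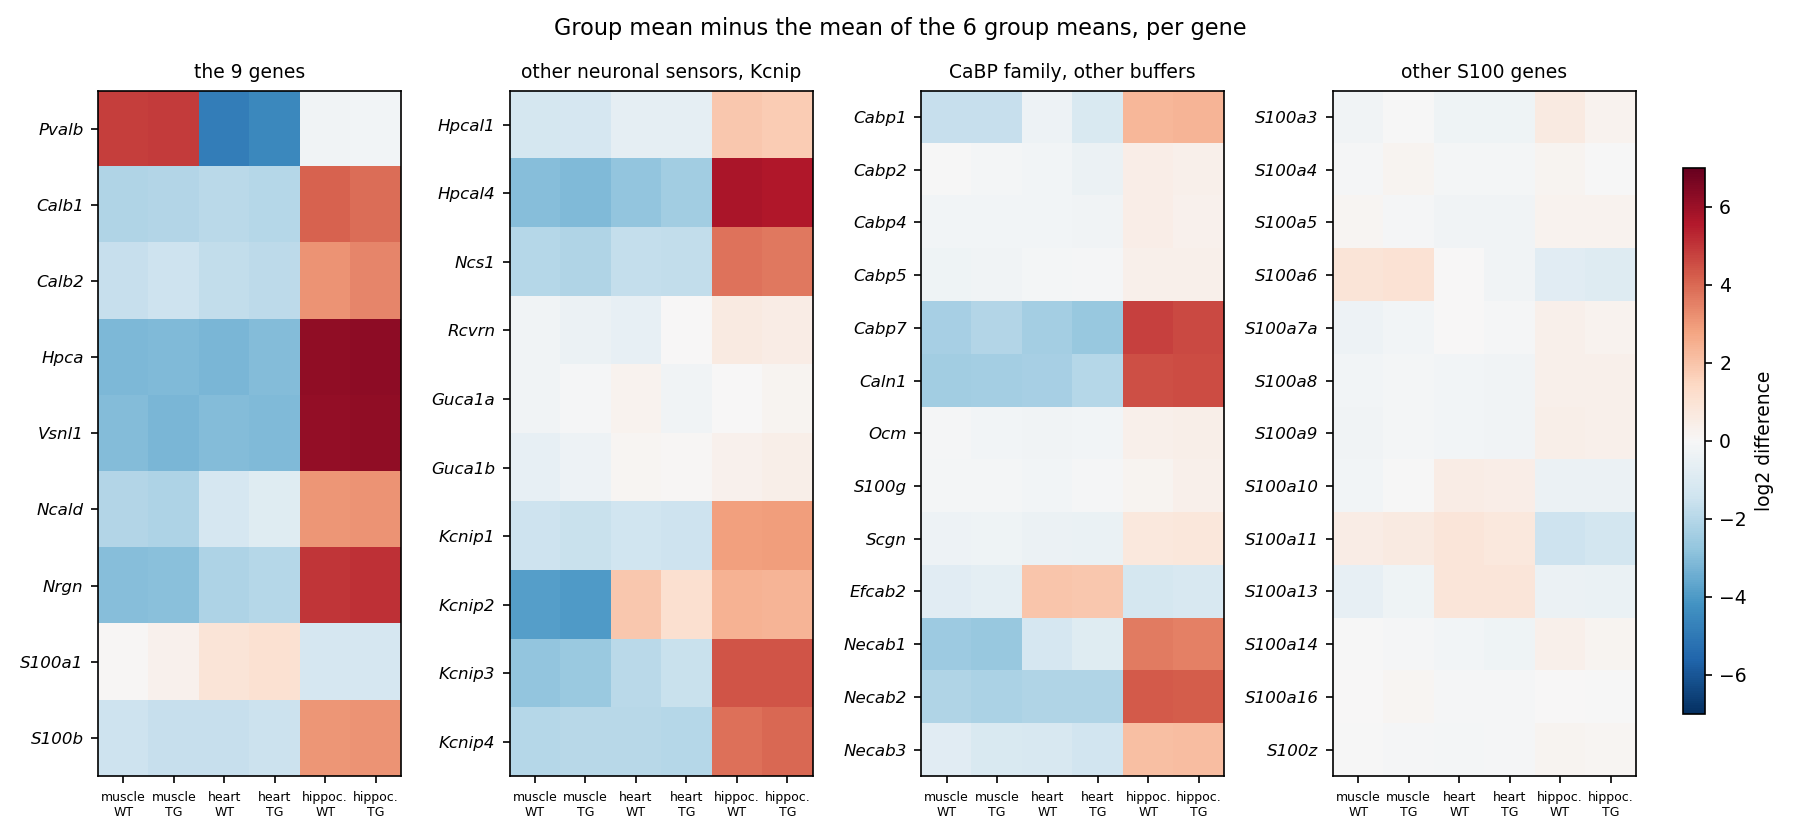
Colour map of the mean log2 level of each gene in each of the 6 groups, as a difference from the mean of its 6 group means, for the 9 genes and for the lists of other sensors, other buffers and other S100 genes. Red is above and blue below the mean of the gene. Hippocampus is the high column for 7 of the 9 genes, with Pvalb highest in muscle and S100a1 highest in heart.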

How the data were processed

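The 18 arrays measured total RNA of 2 genotypes in 3 tissues. The authors deposited log2 values, 1 per probe set and array. The submitters' processing notes name RMA and R 2.10.0. Which chip definition and filters they used, and whether the tissues were normalized jointly, is not given in the sources used here. Groups came from the sample labels. Of 35382 probe sets, 21153 had 1 symbol in the platform annotation, and the one with the highest mean stood for a gene. All probe sets entered 1 limma model (limma 3.58.1, R 4.3.3) of 6 group means, sharing 12 residual degrees of freedom, so an SE reflects the spread in all tissues. Tests were two-sided, adjusted by Benjamini-Hochberg over all probe sets and called under 0.05. With 3 arrays a group an exact permutation test cannot go below 0.1. The labels do not say whether a replicate number marks the same animal, and samples were not paired by it. Same-numbered arrays correlated at -0.031 to 0.0396 across genotypes and -0.0537 to 0.0473 across tissues. These values are not correlations of array levels, which ran at 0.982 to 0.993 within a group. They cannot show, from 3 arrays a group, whether same-numbered samples share an animal. The 9 genes and the lists were chosen with earlier results of these data known. From each related list the text named up to 4 genes called between genotypes, or up to 2 with the smallest unadjusted p, and for each of the 9 genes the 3 most correlated genes. Protein sequences were not analysed here. Figures were drawn with matplotlib 3.10.9.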

Additional observations from a re-analysis of the deposited data

Results flagged for a closer look

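None of the 9 genes had a genotype difference that varied between tissues by the moderated F test, but 4 of the 51 related genes did, where 3.89% of all probe sets were called. For Pcp4l1 the adjusted p was 0.000443, with a fall of 1.29 in muscle and transgenic and wild type means of 9.06 ± 0.12 and 8.92 ± 0.08 in heart (SD, n = 3). For Kcnip2 it was 0.00814, with means of 6.84 ± 0.11 in transgenic and 7.57 ± 0.12 in wild type heart and of 8.10 ± 0.09 and 8.15 ± 0.12 in hippocampus. For Rcvrn it was 0.0122, from values under the array median in every group. For Gca it was 0.0226, with means of 6.02 ± 0.12 and 5.37 ± 0.10 in muscle and of 6.54 ± 0.04 and 6.63 ± 0.17 in hippocampus. The call for Gca was lost without the wild type muscle replicate 3 (adjusted p = 0.0575), the transgenic muscle replicate 2 (0.0537) or 3 (0.0591), or the transgenic hippocampus replicate 1 (0.0520) or 3 (0.0523).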

How the results depend on the processing

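The 22 called tissue differences of the 9 genes were still called in the same direction in all 616 values from 18 alternatives that left out an array and 10 others. Many of these alternatives, such as leaving out an array of a group not compared, could change only the error and not the difference. For them the direction was fixed in advance. Of the genotype counts, only that in heart moved: from 0 to 1 of 9 (Pvalb) without dim probe sets, and 0 to 1 over the fits that left out an array. With the replicate number as a block, 0 of 9 genes passed between genotypes in each tissue. Between heart and muscle, centring on the array median called Hpca (-0.23, adjusted p = 0.0377) and S100b (-0.34, 0.0208) as well. As deposited these differences were -0.06 and -0.17, from means under the array median in both tissues. Centring lowers every difference of heart minus muscle by the same amount. Leaving out the wild type heart replicate 1 called S100b (-0.28, 0.0435). That array held the highest S100b value of wild type heart (2.26, against 1.91 and 1.90 in replicates 2 and 3). The cause of the call was not tested. Signs changed in 43 values of 14 differences that had not passed. Over all probe sets, calls in muscle were 2884, and 838 with the muscle arrays alone. In heart they were 1128, 36 with the heart arrays alone, and 669, 746, 701 and 593 without the wild type replicate 1 or 2 or the transgenic replicate 2 or 3. In hippocampus there were 0, and 1 with array weights. Without dim probe sets, fewer were tested: 15467 were called in place of 27667 between hippocampus and muscle, and 15073 in place of 27165 between hippocampus and heart, where quantile normalization gave 17223.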
